A study of Mus musculus with 2 samples.

Results

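The cells described here are stromal cells from mouse periodontal ligament samples that held at least 5 unique molecular identifiers (UMIs, each standing for 1 captured RNA molecule) of Pcp4 and Wif1 combined. They were chosen by counts of these and other genes. A cell qualified if Col1a1, Col1a2 and Col3a1 made up at least 1% of its UMIs, if the bone genes Bglap, Bglap2, Ibsp and Sp7 made up less than 0.2%, and if markers of endothelial cells, mural cells and neutrophils lay under set limits. The gates kept 406 of 1760 cells, called members here. Of these, 339 came from the 1412 cells of the orthodontic tooth movement (OTM) library and 67 from the 348 cells of the control library.

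Both libraries came from male C57BL/6J mice aged 8 weeks, with no genetic change named. On the OTM side a 10 g orthodontic load drew the first molar of the left upper jaw mesially over 6 days, and the control was the right side, which carried no load. The labels do not say whether dental pulp was part of the dissected tissue. Ligament on the roots and in the sockets was combined from 5 mice a group and digested at 37 °C, first for 30 min in collagenase (2 mg/ml) and then for 30 min in 0.25% trypsin. Each group was therefore 1 droplet library (10x Genomics). There are no replicates, so no test between animals could be made. Every interval is a 95% interval that covers counting error alone; cell-to-cell variation is not part of the intervals of ratios. Gene levels are given as CPM, the summed UMIs of a gene in a cell class for every 1000000 UMIs of that class, and a gene was counted as higher or lower where the levels of a pair of classes differed at least 2-fold.

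The periodontal ligament is the collagen-rich tissue that holds a tooth root in its socket and remodels when a tooth is moved. The dental pulp is the soft tissue inside the tooth, lined by dentin-forming odontoblasts; it shares a cranial neural crest origin and many fibroblast genes with the ligament. Wif1 encodes a secreted protein that binds Wnt ligands and keeps them from their receptors, Sfrp2 encodes a secreted Frizzled-related protein that also acts on Wnt signalling, and Pcp4 encodes a small protein that binds calmodulin.

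The RefSeq promoter windows of the genes that chose the cells are shown because the cells are defined by these transcripts. Each runs from 250 bases before the annotated start to 50 bases after it on GRCm38.p6, plus strand, 5′ to 3′: Pcp4 at chr16:96467356-96467655 and Wif1 at chr10:121033754-121034053. Capitals mark matches, on either strand, to any of 3 short motifs: CTTTGA (core of the site bound by the Wnt effectors TCF and LEF), TGTGGT (core of the RUNX site) and TATAAA (core of the box bound by the TATA-binding protein).
Pcp4: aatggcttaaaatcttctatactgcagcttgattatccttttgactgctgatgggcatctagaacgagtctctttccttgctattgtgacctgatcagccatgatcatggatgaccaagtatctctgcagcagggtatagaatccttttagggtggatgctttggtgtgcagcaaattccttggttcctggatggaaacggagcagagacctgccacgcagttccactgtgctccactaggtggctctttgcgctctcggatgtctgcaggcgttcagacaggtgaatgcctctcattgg
Wif1: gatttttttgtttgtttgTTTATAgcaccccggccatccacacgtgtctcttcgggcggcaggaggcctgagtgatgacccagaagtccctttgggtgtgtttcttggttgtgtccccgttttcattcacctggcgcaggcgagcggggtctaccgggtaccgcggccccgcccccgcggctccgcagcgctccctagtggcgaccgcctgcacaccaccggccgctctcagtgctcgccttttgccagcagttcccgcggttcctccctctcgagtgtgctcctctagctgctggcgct
The Wif1 window held 1 match, to TATAAA on the minus strand at bases 19 to 24, and the Pcp4 window held none of the 3 motifs. Among all 32851 RefSeq windows of this length, 16% held CTTTGA, 16.8% TGTGGT and 13.6% TATAAA. Of the Wif1 window 63% was G or C, with 25 CpG dinucleotides; of the Pcp4 window 48.7%, with 6.

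The members were deeply sequenced. Their median was 23845 UMIs in the OTM library and 21334 in the control library, with 5141 and 4887 genes detected. No barcode was shared by the libraries, and the Scrublet doublet caller, which marked 8 OTM and 2 control cells in all, marked no member. Markers of most other cells summed to low levels. The endothelial, mural and neutrophil lists hold genes that the rule itself limited, so their sums are partly set by the gates. Summed macrophage markers came to 53.1 CPM in OTM members and 22.96 in control members, neutrophil markers to 42.9 and 34.8, endothelial markers to 11.7 and 14.4, and glial markers to 12.02 and 13.1. The endothelial gene Cldn5 and the osteoclast genes Ocstamp and Dcstamp were at 0 in both libraries. The mural list, which holds Acta2 and Tagln, summed to 462 and 615, and the osteoclast list, which holds Ctsk, to 846 and 745. The chondrocyte list (Sox9, Acan, Col2a1, Col9a1 and Col9a2) summed to 73.8 in OTM members and 345 in control members, to 148 and 409 in those with Pcp4, and to 58.8 and 54.6 in those without it, against 52.2 and 15.995 in the other gated stromal cells and 86.1 and 94.2 in osteoblast-lineage cells. Of its 5 genes 2 had enough UMIs to be counted, and both were lower in OTM over all members and with Pcp4; the part of such transcripts in the differences below was not tested. Epithelial markers came to 194 in OTM members and 7.87 in control members, and 396 and 364 of the 802 Krt14 UMIs came from a pair of OTM cells. In all, 3 OTM members and 0 control members held at least 0.5% of their UMIs in epithelial, macrophage or neutrophil markers.

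**Figure D1:**
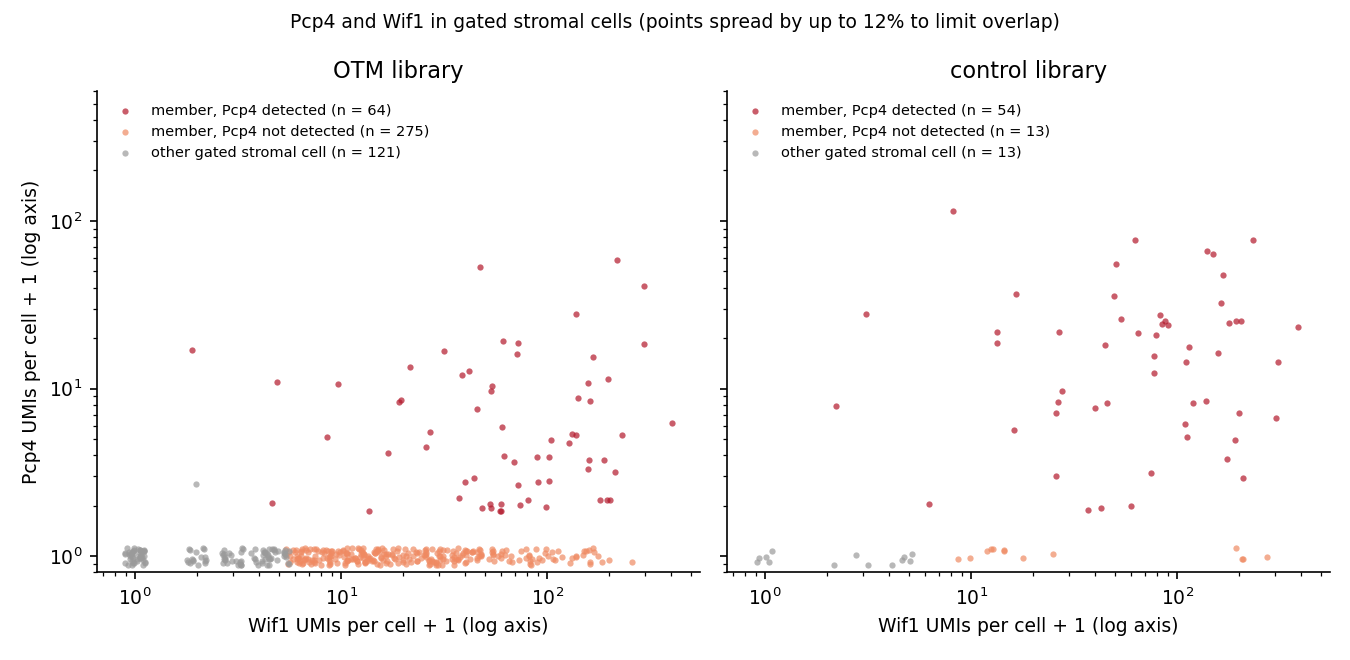
Wif1 UMIs (x axis) and Pcp4 UMIs (y axis) of each gated stromal cell, plus 1 and on log axes, in the OTM library (left) and the control library (right). Members with Pcp4 (64 OTM, 54 control), members without it (275 OTM, 13 control) and gated stromal cells under the limit of 5 UMIs (121 OTM, 13 control) are coloured apart; most OTM members lie along the floor of the Pcp4 axis.

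The label names both genes, but in the OTM library most members met it through Wif1. Members made up 24.0% of OTM cells (21.8 to 26.3%, exact Clopper-Pearson interval) and 19.3% of control cells (15.2 to 23.8%), with intervals that overlap. Wif1 was present in each of the 406 members. Pcp4 was found in 64 of 339 OTM members (18.9%) and in 54 of 67 control members (80.6%), and no member had Pcp4 without Wif1. Since the rule counts both genes, these shares only describe the cells it admitted. Neutrophils, which should lack the gene, had Pcp4 in 2 of 154 OTM cells (1.30%) and in 0 of 38 control cells, at median depths of 6050 and 12606 UMIs; a count of 0 allows a share of up to 7.89% (3 cells of 38).

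Members with Pcp4 made up 4.53% of OTM cells (3.51 to 5.75%) and 15.5% of control cells (11.9 to 19.8%), and members without it 19.5% (17.4 to 21.6%) and 3.74% (2.00 to 6.30%). A sum over all members therefore mixes these kinds in different proportions, and OTM and control are also compared within each kind. Members with Pcp4 were not matched for Pcp4 itself: its median per cell was 4 UMIs in OTM and 17.5 in control. Fewer such cells and less Pcp4 RNA per cell cannot be told apart in these shares.

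The genes used by the rule are given as a description. Pcp4 stood at 59.1 CPM in OTM members and 735 in control members. Wif1 stood at 1777 in OTM members and 4168 in control members, and ran per cell from 1 through a median of 23 to 452 UMIs in OTM members and from 1 through 72 to 371 in control members. Among members with Pcp4 the Wif1 levels lay close together, at 4168 in OTM and 4268 in control; among those without it they were 1296 and 3711. Col1a1 stood at 30186 in OTM members and 23498 in control members.

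Just inside the limit, the 35 OTM members with 5 or 6 UMIs of both genes together had Wif1 at 186, Sfrp2 at 704 and Col1a1 at 28990 CPM; just outside it, the 39 OTM stromal cells with 3 or 4 UMIs had 123, 323 and 31153. In the control library 0 cells lay just inside and 5 just outside. The Wif1 and Pcp4 signal did not end at the other gates: 74 OTM and 23 control cells of the osteoblast lineage (the same gates, with the bone genes at 0.2% or more) also reached 5 UMIs, as did 29 OTM and 24 control cells with less than 1% collagen UMIs. Of the latter, 25 OTM and 19 control cells passed all other gates, and 18 and 17 of these held Pcp4. The collagen gate thus left out cells with Pcp4, and members with Pcp4 are those with more collagen.

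Whether these are ligament or pulp cells was asked with a marker list for each, and members carried markers of both. Of 12 pulp genes 11 had UMIs in the members of each library, and Fgf3 was at 0. Of 13 ligament and tendon genes 12 had UMIs in each, and the proteoglycan gene Kera was at 0. The same number of pulp genes had UMIs in the osteoblast-lineage cells of each library and in the other gated stromal cells of OTM, so these counts do not set members apart. Postn, which encodes the ligament matrix protein periostin, stood at 3427 CPM in OTM members and 2041 in control members, and was found in 99.1% and 97% of cells (92.6% and 77.6% after thinning). Aspn (asporin) was found in 82.9% of OTM and 80.6% of control members, Tnn (tenascin W) in 82.6% and 86.6%, and Col12a1 (collagen XII, a fibril-associated collagen) in 98.2% and 98.5%. Tnmd (tenomodulin), a membrane protein gene of tendon and ligament, was rarer, in 29.2% of OTM and 28.4% of control members. In neutrophils, Postn was found in 2.6% of OTM and 10.5% of control cells, Tnn in 1.3% and 0%, Col12a1 in 1.3% and 0%, and Aspn and Tnmd in 0% of both (limits for a count of 0, 1.95% and 7.89%).

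On the pulp side, Sfrp2 stood at 1072 CPM in OTM members and 2431 in control members. Igfbp3, a binding protein of insulin-like growth factors, stood at 311 in OTM members and 956 in control members. The heparin-binding growth factor genes Ptn and Mdk stood at 1032 and 369 in OTM members and at 1189 and 517 in control members, against 809 and 344 in the other gated stromal cells of OTM and 968 and 528 in those of control. Nnat stood at 18.6 in OTM members and 3.94 in control members, and Dlk1 at 26.6 and 43.3. Of 6 odontoblast genes, 5 had UMIs in OTM members and 3 in control members, and the list summed to 29.6 CPM in OTM members and 87.3 in control members, against 34.7 and 0 in the other gated stromal cells and 1035 and 753 in osteoblast-lineage cells. Dspp, the main dentin phosphoprotein gene, had 2 UMIs in the 339 OTM members and 0 in the 67 control members, and Mmp20 had 0 in both. The pulp list summed to 3068 CPM in OTM members and 5318 in control members. In the other gated stromal cells it came to 1676.5 and 1863, and in osteoblast-lineage cells to 1563 and 2172. The ligament list summed to 8703 and 6433 in members and to 9477 and 13644 in the other gated stromal cells (13 cells in control). In osteoblast-lineage cells it came to 4438.5 and 4247. The ligament sum was thus not higher in members than in the other gated stromal cells. Genes differ in how well they are captured, so the sums of the pulp and ligament lists are not compared with each other.

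**Figure D2:**
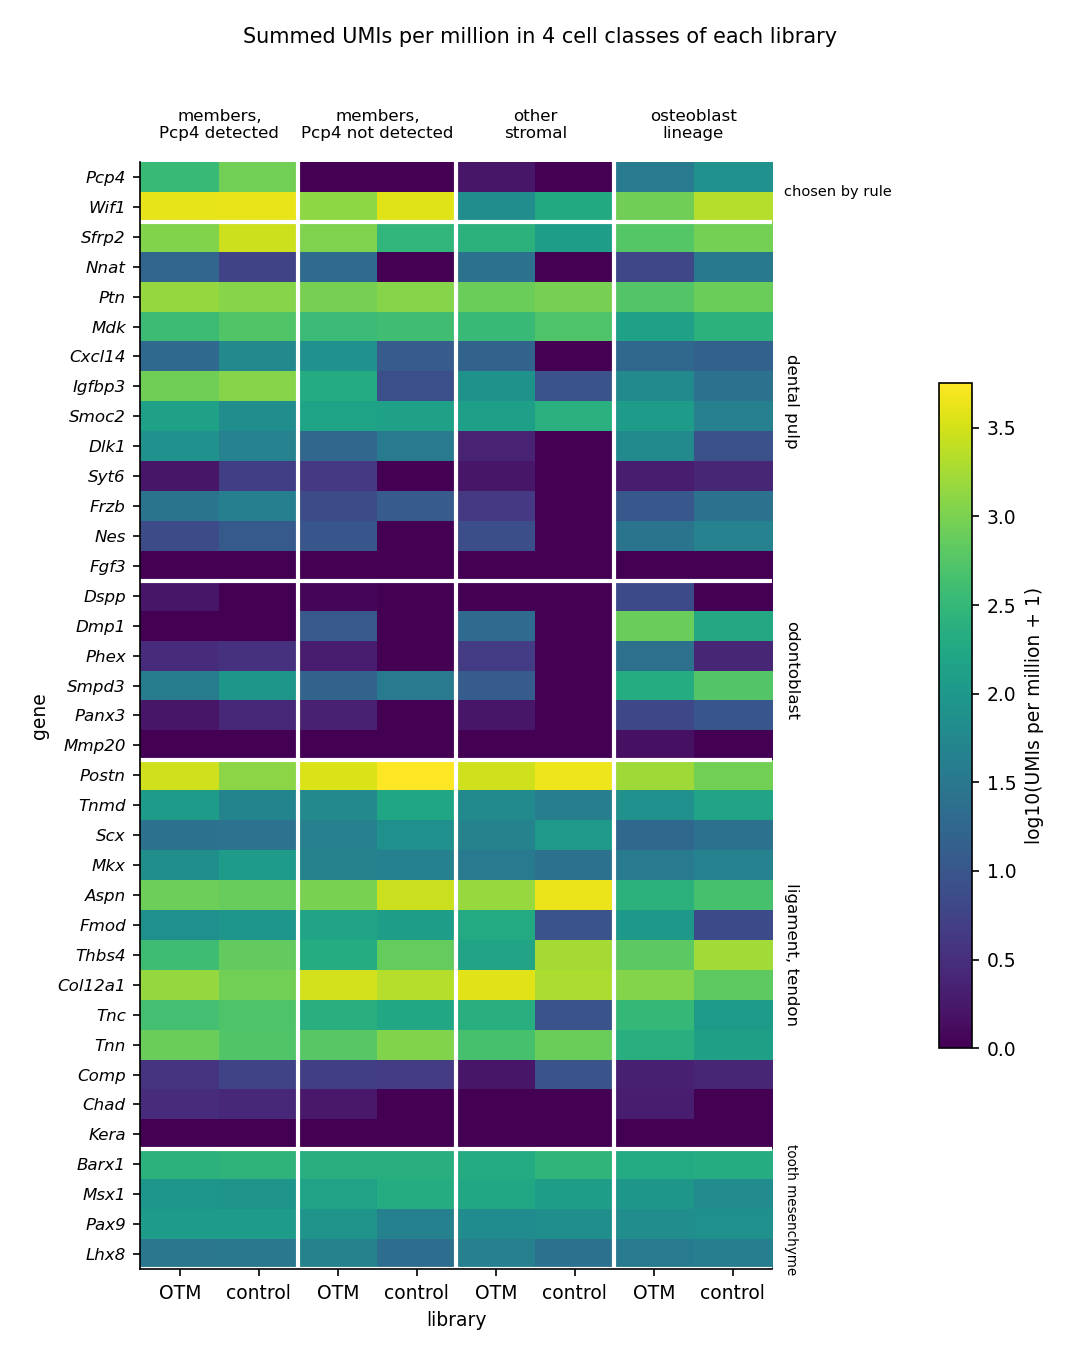
Level of each listed gene (rows; Pcp4 and Wif1, then the dental pulp, odontoblast, and ligament and tendon lists and 4 tooth mesenchyme transcription factors) in 4 cell classes of the OTM and control libraries (columns), as log10 of CPM plus 1. Postn and Barx1 are present in every column, the odontoblast genes Dspp and Mmp20 are dark in members, with Dspp at 2 UMIs in OTM, and Igfbp3 is brightest in members with Pcp4 (857 in OTM, 1164 in control).

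Transcription factors of tooth mesenchyme were present in members and outside them. Barx1, a homeobox factor gene of molar mesenchyme, stood at 234 CPM in OTM members and 264 in control members, against 202 and 288 in other stromal cells and 195 and 211 in osteoblast-lineage cells of the same libraries. It was found in 97% of OTM and 98.5% of control members, in 0.649% of OTM neutrophils and in 0 of 38 control neutrophils, and after thinning in 51.3% of OTM and 53.7% of control members. Msx1 and Pax9, both required for tooth formation, were found in 81.1% and 83.2% of OTM members and in 70.1% and 76.1% of control members.

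Members were next split by whether Pcp4 was detected, a split chosen after its values were seen. With the rule genes left out, 158 of 5425 genes were higher in members with Pcp4 than in members without it in both libraries (2.91%), and 39 were lower in both (0.719%). Members with Pcp4 had a median of 19481 UMIs in OTM and 21934 in control, and members without it 24624 and 18820. The control side of this contrast rests on 13 cells without Pcp4, and in those the UMIs of Ntng1, Lsamp, Angpt4 and Gli1 came from 1 cell each. As a check chosen after the data were seen, each ratio named below was also computed without the cell that held most UMIs of the gene, first in one class and then in the other, and is given where the call of a printed ratio changed or where 1 cell carried much of the value. In OTM, Col8a1 (0.88), Cxcl12 (0.87) and Myc (0.97) then fell under 2-fold, as did Grem1 (0.25) and Wnt5a (-0.79) in control, and Lef1 in control came to lie past it (1.07).

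Ntng1, which encodes the axon guidance protein netrin G1, stood at 71 CPM with Pcp4 and 1.63 without it in OTM (log2 ratio 5.44, 4.58 to 6.44), and at 91.2 and 3.64 in control (4.65, 2.14 to 9.96, from 1 UMI). Lsamp, a neuronal adhesion molecule gene, stood at 109 and 8.45 in OTM (3.69, 3.26 to 4.14) and at 209.7 and 10.9 in control (4.26, 2.70 to 6.55). Ambn (ameloblastin), best known as an enamel matrix gene, stood at 48.7 and 2.18 in OTM (4.48, 3.69 to 5.36) and at 116 and 0 in control, at least 10.6-fold higher when 3 UMIs over the class are taken as the floor. All of these were higher with Pcp4 in both libraries. Angpt4, a ligand gene of the receptor Tie2, stood at 106 and 11.3 in OTM (3.22, 2.83 to 3.63) and at 291 and 10.9 in control (4.74, 3.18 to 7.02). Gpha2, a glycoprotein hormone subunit gene, stood at 105 and 11 in OTM (3.25) and at 295 and 0 in control, at least 27-fold higher. In OTM, Gpha2 was found in 18.4% of osteoblast-lineage cells and in 9.73% of all members. Mfap4, a microfibril-associated protein gene, was found in 67.2% of OTM and 85.2% of control members with Pcp4, and in 15.3% and 23.1% of those without it; neutrophils had it in 0 of 154 OTM and 0 of 38 control cells. Cntn4, Nell1, Abca6, Hepacam, Plppr1 and Wfikkn2 completed the 12 highest. In the control library, thinning gave Abca6, Hepacam and Plppr1 log2 ratios of -1.05, -3.64 and -1.32. A sum of 0 is there set to 3 UMIs, which alone can turn the sign, so these values give no direction.

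S100a4, a calcium-binding protein gene of fibroblasts, headed the lowest, though 85.7% of its 7 UMIs in control members with Pcp4 came from 1 cell. It stood at 23.7 CPM with Pcp4 and 326 without it in OTM (log2 ratio -3.79, -4.31 to -3.31), and at 5.6 and 80.1 in control (-3.84, -5.31 to -2.56). Ecm1, a secreted matrix protein gene, stood at 344 and 1338 in OTM and at 38.4 and 138 in control. Fgf7, a growth factor gene whose product acts on epithelium, stood at 25.7 and 103 in OTM and at 11.2 and 72.8 in control. All 3 were lower with Pcp4 in both libraries. The other lowest were Col5a3, Eya1, Tm4sf1, Podnl1, Spon2, Ehd3, Nrep, Catsper2 and Srgap1. Catsper2 and Srgap1 had positive log2 ratios in OTM when cells were thinned (1.10 and 0.30), a setting in which sums of 0 are set to 3 UMIs.

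**Figure D3:**
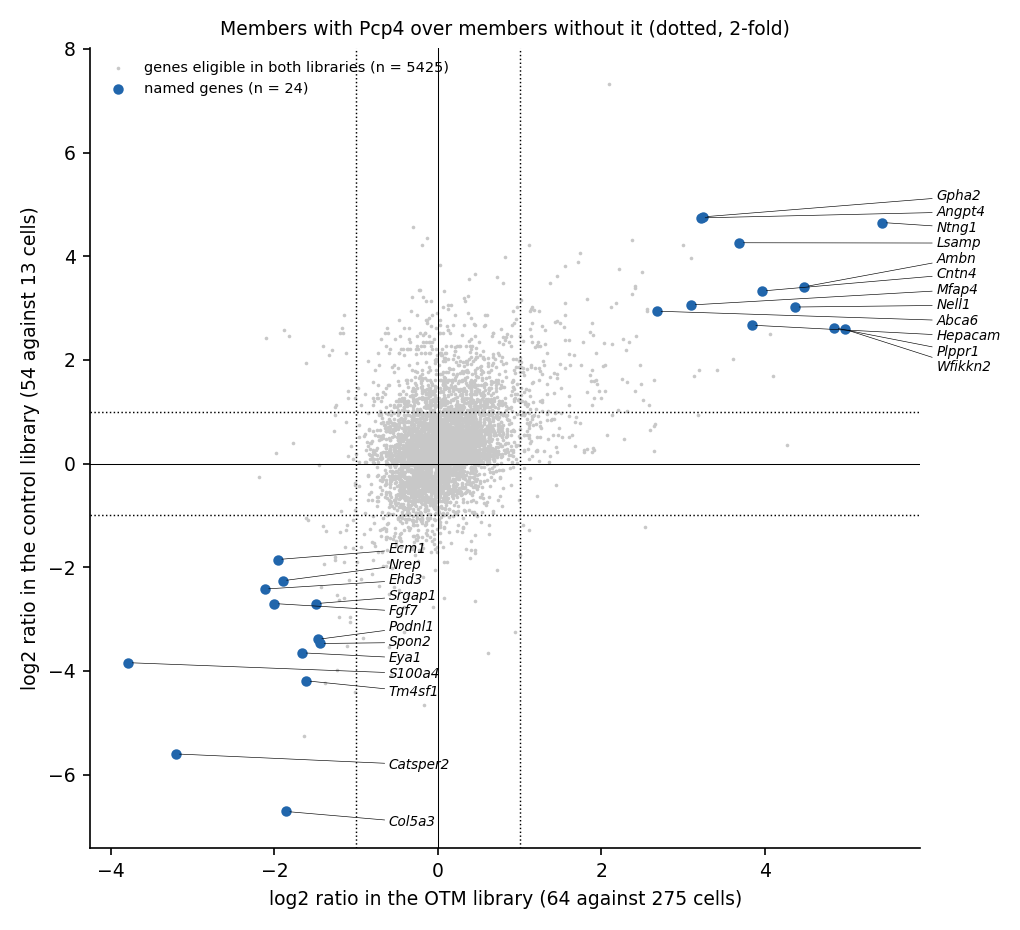
Log2 ratio of members with Pcp4 over members without it, for each of 5425 genes, in the OTM library (x axis, 64 against 275 cells) and the control library (y axis, 54 against 13 cells). Dotted lines mark 2-fold and the genes with the highest and lowest ratios in both libraries are named, with Ntng1 at 5.44 and 4.65 and S100a4 at -3.79 and -3.84.

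In OTM the pulp and ligament lists lay close to each other over the Pcp4 split, and in control, where 13 cells lacked Pcp4, their medians lay apart. In OTM, 321 of 9753 genes were higher with Pcp4 (3.29%) and 484 lower (4.96%); in control, 1102 of 5586 were higher (19.7%) and 219 lower (3.92%). Of the pulp genes counted, 3 of 10 were higher and 1 lower in OTM (median log2 ratio 0.06, against -0.07 over all genes counted), and 4 of 8 were higher and 1 lower in control (1.19, against 0.35). Of the 10 ligament genes counted, 1 was higher and 2 lower in OTM (median 0.15), and 2 were higher and 6 lower in control (-1.16). Without the richest cell of each gene's higher class, 3 pulp genes stayed higher in OTM and 4 in control, and 0 stayed lower. Of the ligament genes 0 then stayed higher and 1 lower in OTM, and 2 and 5 in control. The OTM ligament median was -0.08 without the richest cells with Pcp4 and 0.20 without the richest cells lacking it. Igfbp3 stood at 857 with Pcp4 against 201 without it in OTM (2.09, 1.98 to 2.20) and at 1164 against 7.28 in control (7.32, 5.47 to 10.37, from 2 UMIs). Sfrp2 stood at 1118 against 1063 in OTM (0.07, -0.01 to 0.15) and at 2901 against 291 in control (3.32). So Igfbp3 was higher with Pcp4 in both libraries, and Sfrp2 in control.

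Among ligament genes, Col12a1 was lower with Pcp4 in both libraries, at 1441 CPM against 3152 in OTM (-1.13) and at 899 against 2204 in control (-1.29). Postn stood at 3088 against 3496 in OTM (-0.18) and at 1243 against 5674 in control (-2.19), and was still found in 100% of OTM and 96.3% of control members with Pcp4. Aspn was found in 81.2% and 79.6% of them. Of the Postn UMIs of members with Pcp4, 1 cell held 34.9% in OTM and 1 cell held 32.3% in control. Members with Pcp4 thus held transcripts of the ligament list beside those of the pulp list.

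Among Wnt ligand genes, Wnt5a and Wnt5b were lower with Pcp4 in both libraries, Wnt5a at 80.5 CPM against 242 in OTM (-1.59) and at 58.4 against 124 in control (-1.08). The Wnt-responsive genes Ccnd1 and Myc were higher with Pcp4 in both, Myc at 174 against 85.1 in OTM (1.03) and at 228 against 98.3 in control (1.21). Lef1, a Wnt effector that is also a target, stood at 42.6 against 12 in OTM (1.83, 1.34 to 2.31) and at 57.6 against 47.3 in control (0.28, -0.58 to 1.26). Of the listed Wnt targets 4 of 10 were higher in OTM and 3 of 6 in control, with 0 lower in either. Over all genes counted, 3.29% were higher with Pcp4 in OTM and 19.7% in control. Without the cell with Pcp4 that was richest in each gene, 2 Wnt targets stayed higher in OTM and 1 in control.

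Of the listed collagens, 1 of 14 was higher with Pcp4 and 5 lower in OTM (median -0.63), and 2 of 11 were higher and 8 lower in control (-1.17). Col8a1, a network-forming collagen gene, was the one higher in OTM (1.12, 0.84 to 1.39), and had 255 UMIs with Pcp4 against 0 without it in control. Cxcl12, a chemokine gene of stromal niches, stood at 158 against 78.2 in OTM (1.02) and at 226 against 25.5 in control (3.15). Grem1, which encodes a secreted antagonist of bone morphogenetic proteins, stood at 103 against 20.6 in OTM (2.32, 1.99 to 2.66) and at 154 against 76.5 in control (1.01, 0.35 to 1.73). Gli1, a Hedgehog effector and a marker of tooth mesenchymal progenitors in mice, had 26 UMIs with Pcp4 and 26 without it in OTM (17.6 against 3.54 CPM, 2.31) and 27 against 2 in control (1.57, -0.42 to 4.69).

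Members were then set against the other gated stromal cells of their own library. In OTM, 301 of 10531 genes were higher in members (2.86%) and 80 lower (0.76%); in control, 1230 of 4677 were higher (26.3%) and 133 lower (2.84%). In control the other class was 13 cells with a median of 1967 UMIs, and the median log2 ratio over all genes counted was 0.52, against 0.03 in OTM. In both libraries at once, 86 of 4630 genes were higher (1.86%) and 0 lower (0%). The count of higher genes was 23 when cells were thinned, and 8 when the other cells were limited to those with no Pcp4 or Wif1. In OTM the other cells were also parted by whether Mmp13, Sfrp4 and Ccn5 together reached 5 UMIs: against the 85 that did, 438 of 10363 genes were higher in members (4.23%) and 88 lower (0.849%), and against the rest 875 of 7938 were higher (11%) and 104 lower (1.31%).

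Kcnip4, which encodes a potassium channel-interacting protein, stood at 476 CPM in OTM members and 23.8 in other OTM stromal cells (4.32, 3.98 to 4.69), and at 718 and 64 in control (3.49, 2.51 to 4.70). Osteoblast-lineage cells also held Kcnip4, with up to 146 UMIs per cell in OTM and 32 in control. Nts, the neurotensin precursor gene, had 188 UMIs in OTM and 437 in control members and 0 in the other stromal cells of either library, at least 20.3-fold and at least 11.9-fold higher. Pmch, the melanin-concentrating hormone precursor gene, had 570 UMIs in OTM members against 1 in the other cells, and 284 against 0 in control. Pthlh, which encodes parathyroid hormone-related protein, a regulator of tooth eruption in mice, stood at 85.9 against 19.97 in OTM (2.11, 1.72 to 2.52), and at 106 against 0 in control, at least 4.4-fold higher. The neuropeptide genes lay in few cells: Nts was found in 10.3% of OTM and 20.9% of control members, and Pmch in 10.9% and 17.9%. A pair of cells held 21.8% of the Nts UMIs of OTM members and 48.1% of those of control members, and 40.5% and 69.7% of the Pmch UMIs. Dlg2, Inpp4b, Abi3bp, Mfap4, Ica1, Angpt4, Dok6 and Sfrp2 completed the 12 highest.

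Lgals3 (galectin 3) headed the lower side, at 282 CPM in members and 493 in other stromal cells of OTM (-0.81, -0.90 to -0.71) and at 66.9 and 456 in control (-2.77, -3.25 to -2.27). S100a6, a calcium-binding protein gene, stood at 1493 and 2519.5 in OTM (-0.76) and at 306 and 1887 in control (-2.63). Aspn stood at 980.2 and 1508 in OTM (-0.62) and at 1145 and 4375 in control (-1.93). All 3 were under 2-fold in OTM, and in control 1 of the 13 other cells held 63.2% of the Lgals3 and 61.9% of the S100a6 UMIs of its class (log2 ratios without it, -1.54 and -1.44). The remaining lowest were Col15a1, Slc24a3, Itga11, Lox, Spon2, Cryab, Col6a3, Mt2 and Col11a1. Of the pulp list, 4 of 9 genes were higher and 0 lower in OTM and 3 of 8 higher and 1 lower in control. Of the ligament list, 0 of 10 were higher or lower in OTM, and 3 of 9 were higher and 3 lower in control. Over all genes counted, 2.86% were higher and 0.76% lower in OTM, and 26.3% and 2.84% in control. The control counts, against 13 shallow cells, thus do not set either list apart on the higher side.

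Against the 152 OTM and 39 control osteoblast-lineage cells, members had less of late bone genes that the rule did not use. The classes were parted by the bone genes of the rule, so lower levels of related bone genes are not independent of that gate. In OTM 420 of 10979 genes were higher in members (3.83%) and 285 lower (2.6%), in control 949 of 7349 were higher (12.9%) and 257 lower (3.5%), and in both 159 of 7285 were higher (2.18%) and 110 lower (1.51%). Dmp1, a matrix gene of osteocytes and odontoblasts, stood at 8.5 CPM in OTM members and 789 in OTM osteoblast-lineage cells (-6.54, -6.89 to -6.21; -7.90 without the member that held 61.3% of its UMIs), and at 0 and 182 in control, at least 92.7-fold lower. Bglap3, whose reads may be shared with its close copies Bglap and Bglap2 in the rule, stood at 1.02 and 149.5 in OTM and at 2.62 and 136 in control. Ifitm5, an osteoblast membrane protein gene, stood at 11.7 and 165 in OTM (-3.82) and at 1.97 and 241 in control (-6.93, -9.23 to -5.36, from 3 UMIs). The others were Car3, Pla2g5, Sema3d, Col22a1, Col11a2, Grrp1, Cyfip2, Bmp8a and Car2.

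Among the genes higher in members than in osteoblast-lineage cells, Grem1 stood at 34.4 CPM and 5.2 in OTM (2.73, 2.11 to 3.40) and at 139.8 and 14.9 in control (3.22, 2.32 to 4.31). Matn4, a matrix adaptor protein gene, stood at 275 and 53.8 in OTM (2.36) and at 377 and 82.2 in control (2.20). Lama2, a laminin chain gene, stood at 51.6 and 11.1 in OTM (2.22) and at 84.6 and 14.9 in control. Igfbp3 was also among them, with Grid1, Frem1, Cntn4, Aqp5, Efemp1, Dner, Lbp and Dio3os. Of the 9 genes counted of the insulin-like growth factor system, 5 were higher and 0 lower in each library, with Igfbp5 at 1321 and 237 in OTM (2.48) and at 794 and 212 in control (1.90). Of the 10 ligament genes, 5 were higher and 1 lower in OTM, and 6 higher and 2 lower in control. Thbs4 (thrombospondin 4) was lower in members of both, at 239 against 632 in OTM (-1.40) and at 711 against 1738 in control (-1.29, and -0.94 without 1 osteoblast-lineage cell).

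The comparison of OTM members with control members addresses what differed in these cells after 6 days of force. Of 9824 genes counted, 682 were higher in OTM members (6.94%) and 498 lower (5.07%), and the median log2 ratio was 0.06. Without the filter on low counts the numbers were 1302 higher and 2667 lower, so the balance of directions rests on that filter. With each gene counted without the cell that held most of its UMIs in the class where it was higher, 608 of the 682 stayed higher and 323 of the 498 stayed lower. Within members with Pcp4 (64 OTM and 54 control cells), 324 of 8220 were higher (3.94%) and 316 lower (3.84%), of which 188 and 157 stayed so in the same check. Within members without it (275 and 13 cells), 1182 of 6816 were higher (17.3%) and 140 lower (2.05%).

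**Figure D4:**
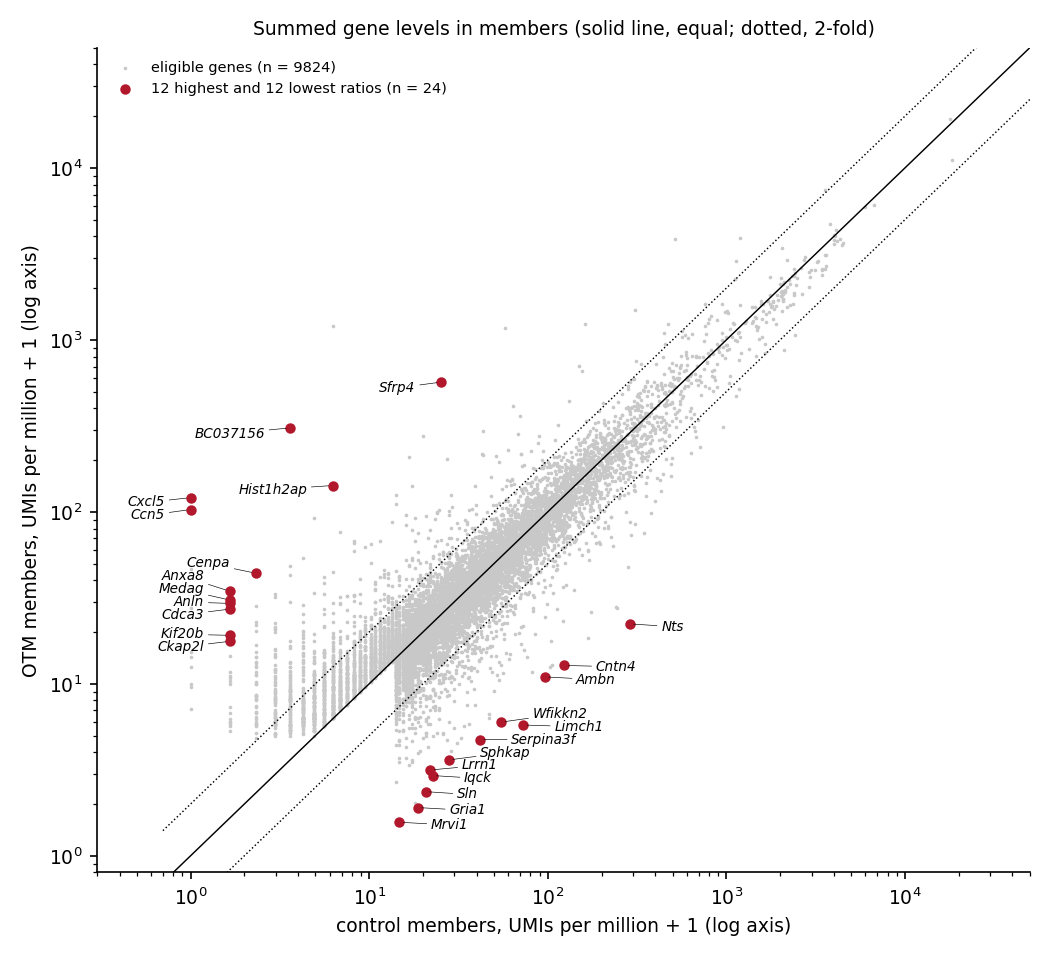
Level of each of 9824 genes in OTM members and in control members, as CPM plus 1 on log axes, with lines at equal levels and at 2-fold. The genes with the highest and lowest ratios are named, among them Sfrp4 (567 in OTM, 24.3 in control) on the high side and Nts (21.3 in OTM, 287 in control) on the low side.

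Sfrp4, a secreted Frizzled-related Wnt modulator gene, stood at 567 CPM in OTM members and 24.3 in control members (log2 ratio 4.55, 4.08 to 5.05). It was found in 63.1% of OTM and 14.9% of control members (43.4% and 2.99% after thinning) and in 1.3% of OTM and 0% of control neutrophils. Within members with Pcp4 it stood at 311 in OTM and 24.8 in control (3.65, 3.12 to 4.22), but 1 OTM cell held 73.4% of its UMIs there. Without that cell it stood at 85.8 in OTM members with Pcp4 and the log2 ratio was 1.79. Cxcl5, a neutrophil-attracting chemokine gene, had 1058 UMIs in 10.0% of OTM members and 0 in control members, at least 60.9-fold higher; in 3 of 154 OTM neutrophils it had 1152 UMIs. Ccn5, a secreted matricellular protein gene, had 901 UMIs in 23% of OTM members and 0 in control members, at least 51.9-fold higher, and 0 in the neutrophils of both libraries.

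The other highest genes rested on very few control UMIs. Anln, Cdca3, Kif20b and Ckap2l, all with roles in cell division, had 250, 231, 160 and 147 UMIs in OTM members and 1 each in control members. Cenpa, a centromeric histone gene, had 379 against 2 (5.03, 3.17 to 8.08), and the histone gene Hist1h2ap 1246 against 8 (4.75, 3.77 to 5.97). The direction was not stable for some: Cenpa and Kif20b turned to lower in OTM when the collagen gate was dropped (-0.14 and -0.04). Thinning gave Anln and Kif20b log2 ratios of -0.75 and -0.34. With 1 control UMI before thinning and a sum of 0 set to 3 UMIs, these values give no direction. BC037156 had 2707 UMIs against 4, and 98.0% of the OTM UMIs came from the pair of cells with the most, while 94.8% of Krt14 UMIs came from the pair of cells richest in it. Anxa8 and Medag were the others of the 12.

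Among the lowest, Gria1, a glutamate receptor subunit gene, stood at 0.907 CPM in OTM members and 17.7 in control members (-4.29, -5.64 to -3.11). Limch1, a gene of an actin-linked protein, stood at 4.76 and 71.5 (-3.91, -4.46 to -3.38), and Nts at 21.3 and 287 (-3.75). Within members with Pcp4, Nts stood at 68.3 and 231 (-1.76, -2.10 to -1.43). Cntn4, Ambn and Wfikkn2, named above as higher in members with Pcp4, stood at 11.8, 9.98 and 4.99 in OTM and at 123, 95.1 and 53.8 in control; 1 control cell held 47.6% of the Ambn UMIs (-2.38 without it, against -3.25). Mrvi1, Sln, Iqck, Serpina3f, Sphkap and Lrrn1 were the others. Within members with Pcp4, Mrvi1, Gria1 and Limch1 were again among the 12 lowest, with Hcn4, Egr4, Pcdh15, Kcnq3, Ecrg4, Sox2ot, Dock3, Gatm and Mia. Egr4, an immediate early transcription factor gene, stood there at 7.44 in OTM and 67.2 in control (-3.17, -4.23 to -2.26). The 12 highest within members with Pcp4 were Col5a3, Xdh, Racgap1, Ccl2, Hist1h2ap, Ly6a, Tm4sf1, Sfrp4, Nid2, Prc1, Gpnmb and Ecm1, with the Hist1h2ap ratio at 4.03 (1.76 without 1 OTM cell), Ly6a, a stromal progenitor marker in mice, at 159 and 10.4 (3.93, 3.13 to 4.86) and Ecm1 at 344 and 38.4 (3.16, 2.73 to 3.62).

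**Figure D5:**
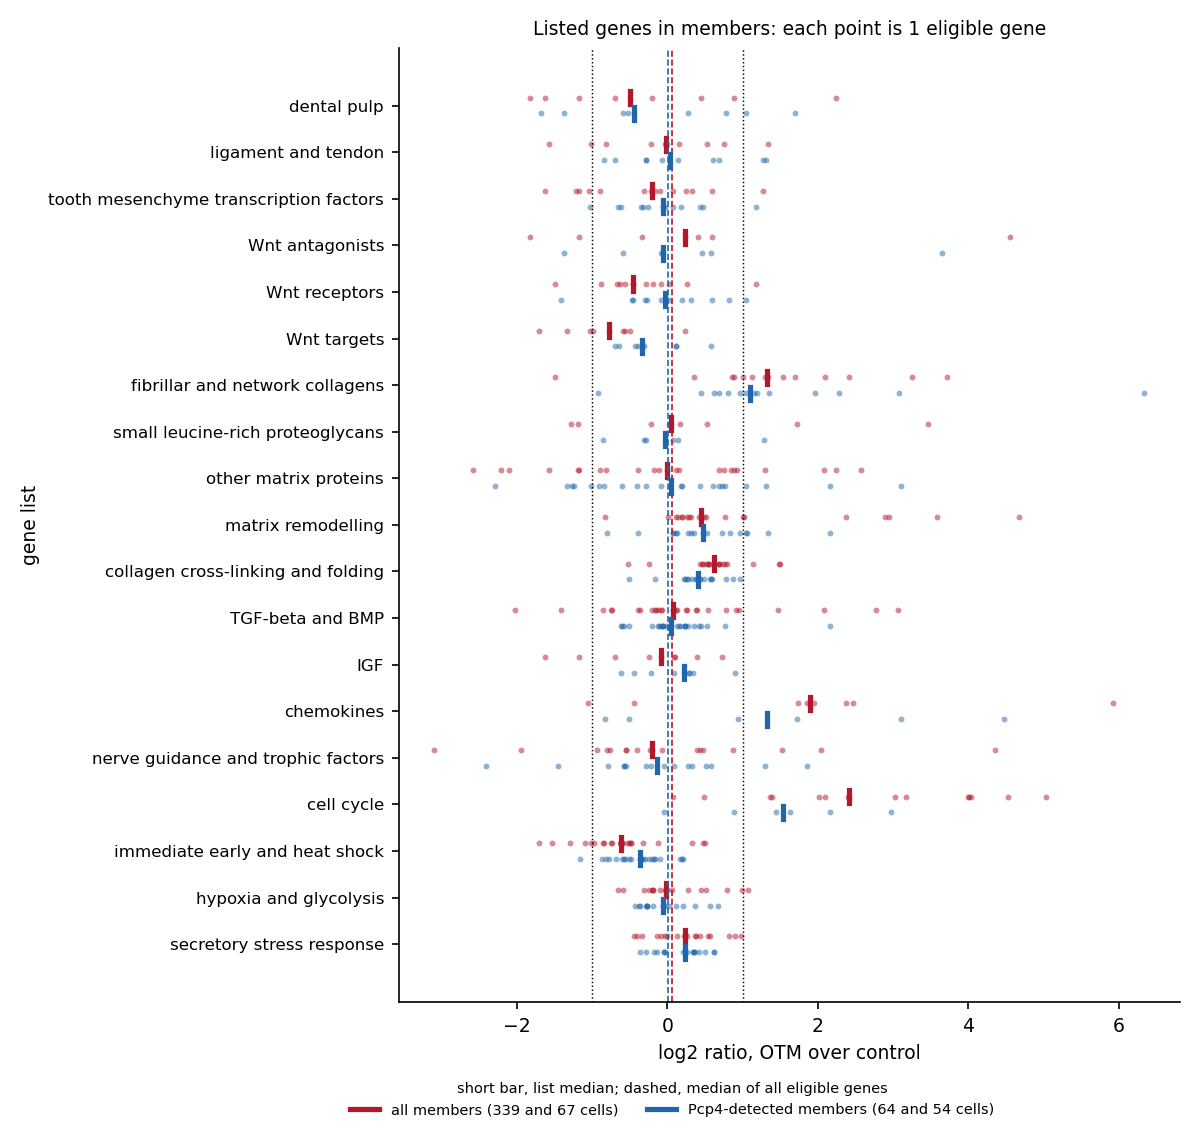
Log2 ratio of OTM over control for each counted gene of the gene lists (rows), over all members (339 and 67 cells) and over members with Pcp4 (64 and 54 cells), with the median of each list and of all genes counted (0.06 and 0.01). Collagens lie to the right in both (medians 1.32 and 1.10), and immediate early and heat shock genes to the left (-0.61 and -0.36).

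Of the 14 collagens counted, which leave out those of the rule, 10 were higher and 1 lower over all members (median 1.32), and 8 were higher and 0 lower within members with Pcp4 (1.10, against 0.01 over all genes counted). With each gene counted without its richest OTM cell, 10 over all members and 6 with Pcp4 stayed higher. Col6a3, a chain of the microfibrillar collagen VI, stood at 662 CPM in OTM and 155 in control over all members (2.09, 1.90 to 2.28), and at 411 and 106 within members with Pcp4 (1.96, 1.69 to 2.24). Col5a3, a chain of the fibril-initiating collagen V, had 96 UMIs in OTM and 1 in control members with Pcp4 (6.34, 3.83 to 11.66, with 44.8% of the OTM UMIs in 1 cell). Col8a1 was the one lower over all members, at 59.2 and 167.

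Of 23 other matrix genes counted, 4 were higher in OTM members and 6 lower. Mgp, which encodes an inhibitor of calcification, stood at 702 CPM in OTM and 149 in control over all members (2.24) and at 301 and 35.2 within members with Pcp4 (3.10). Postn stood at 3088 and 1243 within members with Pcp4 (1.31, 1.23 to 1.40), and 0.82 without 1 OTM cell, which is under 2-fold. Thbs1 (thrombospondin 1) was lower in OTM, at 74.8 and 346 over all members (-2.21) and at 161 and 409 with Pcp4 (-1.34). Of the small proteoglycans, Lum (lumican) stood at 3938 and 1189.5 over all members (1.73, 1.66 to 1.80), whereas Dcn (decorin) stood at 2287 and 2034 (0.17, 0.11 to 0.22).

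Of 21 matrix-remodelling genes 7 were higher in OTM and 0 lower over all members (median 0.45), and 4 of 19 were higher within members with Pcp4, of which 1 stayed higher without its richest OTM cell. Mmp13, a collagenase gene, stood at 3837 CPM in OTM and 515 in control over all members (2.90), and at 1189.6 and 606 within members with Pcp4 (0.97, 0.85 to 1.10). Timp1, a metalloproteinase inhibitor gene, stood at 1236 and 160.1 over all members (2.95) and at 644 and 144 with Pcp4 (2.16, 1.93 to 2.40), where 1 OTM cell held 42.6% of its UMIs; without it the level was 384 and the log2 ratio 1.41. Within members with Pcp4 the Mmp13 ratio was 0.69 without 1 OTM cell and 1.30 without 1 control cell. Of 18 collagen cross-linking and folding genes 3 were higher and 0 lower over all members, among them Lox (lysyl oxidase) at 320.2 and 114, and 0 were higher or lower within members with Pcp4, where Lox stood at 154 and 89.6 (0.78, 0.45 to 1.12). Spp1 (osteopontin), not part of the rule, stood at 1196 and 5.25 over all members (7.83, 6.85 to 9.04), and 34.9% of its OTM UMIs came from a pair of cells. Summed osteoblast markers, which include it, came to 1964 in OTM members and 608 in control members; the part of cells near the bone gate in this value was not tested.

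The Wnt antagonist genes differed in direction. Of 7 counted, Sfrp4 was higher in OTM and 2 were lower over all members: Sfrp2 stood at 1072 CPM in OTM and 2431 in control (-1.18, -1.24 to -1.13; -0.93 without 1 control cell), and Frzb, another secreted Frizzled-related protein gene, at 9.98 and 35.4 (-1.83, -2.33 to -1.31). Within members with Pcp4, Sfrp2 stood at 1118 and 2901 (-1.38, -1.46 to -1.29), and within members without it at 1063 and 291 (1.87, 1.55 to 2.20), so its direction was opposite in the 13 control cells without Pcp4. Among ligands, Wnt5a stood at 215 and 70.2 over all members (1.61) and at 80.5 and 58.4 with Pcp4 (0.46, 0.03 to 0.90). Of 13 receptor genes 1 was higher, Ryk (1.18), and 1 lower, Fzd7 (17.9 and 50.5 CPM). Of 9 Wnt-responsive genes 0 were higher and 3 lower over all members, Lef1 (-1.70), Ccnd1 (-1.34) and Myc (-1.03, and -0.96 without 1 control cell), and 0 of 9 were higher or lower within members with Pcp4, where Lef1 stood at -0.43 (-0.95 to 0.07). Of 17 calmodulin and calcineurin genes, the pathway of Pcp4, 0 were higher and 1 lower, the Pcp4 relative Pcp4l1, with 46 UMIs in OTM and 26 in control (-1.71, -2.43 to -0.96).

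Of 8 chemokine genes counted, 6 were higher in OTM members and 1 lower (median 1.90), and within members with Pcp4 3 of 6 were higher and 0 lower (1.33). Without the OTM cell richest in each gene the median with Pcp4 was 0.48, and 2 stayed higher. Ccl2, whose product attracts monocytes, stood at 217 CPM in OTM and 42 in control over all members (2.37, 2.01 to 2.75) and at 304 and 13.6 with Pcp4 (4.48, 3.79 to 5.27). Cxcl12 was the one lower, at 91.6 and 189.6 (-1.05, and -0.99 without 1 control cell). Tnfsf11, which encodes the osteoclast-inducing cytokine RANKL, had 420 UMIs in OTM and 4 in control members (47.6 and 2.62 CPM, 4.18, 2.81 to 6.06), so its control level rests on 4 molecules. Summed macrophage and neutrophil markers in the same members are given above; their part in these differences was not tested.

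Of 15 cell cycle genes counted, 13 were higher in OTM members and 0 lower (median 2.42), and within members with Pcp4 4 of 6 were higher and 0 lower (1.54), of which 2 stayed higher without the richest OTM cell. Top2a, a topoisomerase gene of dividing cells, stood at 101 CPM in OTM and 23.6 in control over all members (2.10, 1.62 to 2.62), and at 73.8 and 27.2 with Pcp4 (1.44, 0.87 to 2.04, and 0.93 without 1 OTM cell). Mki67, a marker of cycling cells, had 331 UMIs in OTM and 7 in control over all members (3.03, 1.97 to 4.36), and 71.4% of the control UMIs came from 1 cell.

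Of 24 immediate early and heat shock genes, which also respond to tissue dissociation, 0 were higher and 5 lower in OTM over all members (median -0.61), and 1 was lower within members with Pcp4 (-0.36). Without the control cell richest in each gene, 3 stayed lower over all members and 0 within members with Pcp4. Nr4a1, an immediate early nuclear receptor gene, stood at 132 CPM in OTM and 429 in control over all members (-1.70, -1.84 to -1.56) and at 217 and 485 with Pcp4 (-1.16, -1.36 to -0.96, and -0.90 without 1 control cell). The part of dissociation in the other differences was not tested.

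Of the identity lists, 1 of 9 pulp genes was higher in OTM and 3 lower over all members (median -0.49), and 1 of 10 ligament genes was higher and 2 lower (-0.02). Igfbp3 stood at 311 CPM and 956 over all members (-1.62, -1.71 to -1.53) and at 857 and 1164 with Pcp4 (-0.44, -0.55 to -0.33). Thbs4 stood at 239 and 711 over all members (-1.57) and at 392 and 704 with Pcp4 (-0.84), where 1 OTM cell held 33.4% of its UMIs and the log2 ratio without that cell was -1.31. Tnmd stood at 67.4 and 68.9 over all members (-0.03) and at 116 and 48 with Pcp4 (1.27, 0.84 to 1.72). Of 18 secretory stress genes 0 were higher or lower in either view.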

How the data were processed

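The authors deposited counts: whole numbers of UMIs for each gene in each barcode, not normalized. The software is Cell Ranger 7.0.1, per the file headers. Both mm10 (GRCm38) and Seurat are named, per the submitters' processing notes. The matrices held 1539 OTM and 369 control barcodes and 32285 genes, and 32158 gene identifiers were found in GENCODE M21. Cells with at least 200 genes and at most 20% mitochondrial UMIs were kept, which removed 127 OTM and 21 control barcodes and left 35518568 and 5593726 UMIs. Further gates were at most 2 UMIs of Pecam1 and Cdh5, under 10 of Rgs5, Notch3, Kcnj8, Myh11 and Higd1b, and under 1% of S100a8 and S100a9. Neutrophils were cells with at least 5% of S100a8 and S100a9 and under 1% collagen UMIs. Doublets called by Scrublet (scanpy 1.11.5) were kept in the main values.

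UMIs were summed per class and library. Shares have exact Clopper-Pearson intervals and ratios exact conditional binomial intervals (Python 3.11.15, scipy 1.17.1); TMM scaling came from edgeR 4.0.16 on the counts, with no test. A sum of 0 was set to 3 UMIs for a bound. Genes were counted where the higher class had at least 20 UMIs and at least 10% of its cells had one, with rule genes left out. Named are the 12 highest and 12 lowest ratios per comparison (other-cell markers, and mitochondrial, ribosomal, haemoglobin, Gm-, Rik- and clone-named, and sex-linked marker genes were not named by this rule), ordered by the ratio nearer to 0 where both libraries enter, and list members, which were picked after their values were seen. Members and lists were chosen with earlier results of these data known. Of 693 listed genes, 2 were not matched. The calls were checked on simulated data. Some results are not reported here.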

Additional observations from a re-analysis of the deposited data

Results flagged for a closer look

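For these genes the OTM and control libraries lay past 2-fold in opposite directions under the same contrast. The differences were not tested, since each library has no replicate. For members over osteoblast-lineage cells, the log2 ratio of Nnat was 1.84 in OTM and -3.00 in control, and that of Iqck -1.30 and 3.86 (1.28 to 9.20, from 1 UMI in the control osteoblast-lineage cells). For members with Pcp4 over members without it, Mmp13 stood at -1.88 in OTM and 2.57 in control, Cxcl14 at -2.10 and 2.42, Acta2 at -1.30 and 2.20, Smoc1 at -1.26 and at least 1.09 (29 UMIs against 0, set to the floor of 3 UMIs over the class), Tnmd at 1.01 and -1.77, and Nts at 2.53 and -1.22. In OTM the Tnmd ratio fell under 2-fold without the richest cell with Pcp4. The OTM ratio of Cxcl14 was no longer 2-fold lower without the richest cell lacking Pcp4.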

How the results depend on the processing

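No paired analysis was possible because each group is 1 library, and for the same reason no replicate could be left out. Of the values that answer a comparison, 217 stayed and 28 moved, and of single genes 1204 stayed, 256 moved and 9 reversed. A share stayed if within its counting interval, and a count if within 1.5 times. A list median stayed if within an interval over the genes of its list, which is not counting error. A single gene stayed if within its counting interval. Without its richest cell, it stayed if its call held and it moved by under 1.5 times. The share of members in OTM (24.0%) was 26.8% at a limit of 3 UMIs, 19.0% at 10 UMIs and 20.8% at 0.03% of UMIs; that in control (19.3%) was 24.7% without the collagen gate, chosen after seeing the data, and 23.8% after thinning. The share with Pcp4 in OTM (18.9%) was 23.5% at 10 UMIs. Thinning to 3000 UMIs left 360 genes higher and 113 lower in OTM over control, 23 higher than in other stromal cells, 42 higher and 32 lower than in osteoblast-lineage cells, and 46 higher and 8 lower with Pcp4. Without the low-count filter, OTM over control gave 1302 higher and 2667 lower, other stromal cells 302 lower, osteoblast-lineage cells 339 higher and 357 lower, and the Pcp4 split 307 lower. The 86 genes higher than in other stromal cells became 26 at 3 UMIs, 8 against cells with no Pcp4 or Wif1, and 57 where the interval had to lie past 1; the 0 lower became 1 at 3 UMIs, 1 at 0.03% of UMIs and 12 with cells weighted equally. The 39 lower with Pcp4 became 24 at 10 UMIs. The ligament median against other stromal cells in control (-0.33) was -1.37 after thinning. Thinning turned the sign of Anln (-0.75) and Kif20b (-0.34) in OTM over control. It also turned that of Abca6 (-1.05), Hepacam (-3.64) and Plppr1 (-1.32) in the control Pcp4 split, and of Catsper2 (1.10) and Srgap1 (0.30) in the OTM one. Thinned sums of 0 were set to 3 UMIs, so a turned sign can come from that floor alone. Dropping the collagen gate reversed Cenpa (-0.14) and Kif20b (-0.04). TMM scaling moved the median of all genes from 0.06 to 0.17 in OTM over control and from 0.52 to 0.79 for members over other stromal cells in control. Thinning and filters alter how many genes are counted; other causes were not tested. Each gene counted without the cell holding most of its UMIs, chosen after seeing the data, left 323 of the 498 genes lower in OTM over control. Of 196 named ratios so treated, 120 moved by under 1.5 times, 40 moved more, 15 came to lie under 2-fold, 8 came to lie past it and 13 had no UMIs left in 1 class. The 67 control members, and the 13 control cells in each of 2 classes, limit depth.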

Other observations

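For 3 listed groups not described above, the counts are given beside the 6.94% higher and 5.07% lower over all genes counted in OTM over control members, and the 3.94% and 3.84% within members with Pcp4. Of 29 genes of transforming growth factor beta and bone morphogenetic protein signalling, 4 were higher in OTM and 2 lower over all members, and 1 of 27 was higher and 0 lower within members with Pcp4. Inhba, an activin subunit gene, stood at 293 CPM in OTM and 42.6 in control over all members (2.78, 2.42 to 3.16), and at 71.7 and 42.4 with Pcp4, where 1 OTM cell held 61.3% of its UMIs (log2 ratio 0.76, and -0.56 without that cell). Grem1 stood at 34.4 and 139.8 over all members (-2.02, and -1.36 without 1 control cell), and at 103 and 154 with Pcp4 (-0.58), where the log2 ratio was -1.18 without 1 OTM cell and 0.18 without 1 control cell.

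Of 14 tooth mesenchyme factors, 1 was higher in OTM and 4 lower over all members, and 1 higher and 1 lower within members with Pcp4. Prrx1 was the one higher in both (1.27 over all members, 1.18 with Pcp4). Msx2 stood at -1.62 over all members and at -1.03 with Pcp4 (-0.81 without 1 control cell), Dlx5 at -1.21 and -0.33, Dlx2 at -1.17 and -0.65, and Dlx6 at -1.04 (-0.85 without 1 control cell) and -0.35. Of 18 nerve guidance and trophic genes, 3 were higher and 2 lower over all members, and 2 of 16 were higher and 2 lower with Pcp4. Slit2 stood at 250.9 CPM in OTM and 87.3 in control over all members (1.52) and at 150.2 and 101 with Pcp4 (0.58). Sema3e had 31 UMIs in OTM and 46 in control members (-3.10), and 1 control cell held 45.7% of those in control (-2.28 without it).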
